A study of Mus musculus with 18 samples.

Results

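Eosinophils taken from the small intestine of wild-type mice that had received no treatment are described here by the genes they expressed at rest, by how much of each transcript they held and by how much the samples differed among themselves. The members are the 6 samples whose column in the deposited expression table carries the WT prefix, out of 18 samples in that table. No genotype is compared. All 6 are labelled with the genotype wildtype, the strain C57/BL6 and the tissue small intestine. Of these, 3 came from males (WT M1, WT M2 and WT M3) and 3 from females (WT F1, WT F2 and WT F3). The labels give no age. Cells were enriched with anti-CD11b beads and then sorted as CD11b+ MHC-II- SiglecF+ SSChi, so that high Itgam and Siglecf follow from the gate and are not findings. Before enrichment, the tissue had been incubated with EDTA and digested with collagenase, both at body temperature. The part of these steps in the levels below was not tested. RNA was taken immediately after sorting, and only preparations with an RNA integrity number of at least 7 were used. cDNA was amplified with the NuGEN Ovation system, and single-ended reads of at least 75 bases were sequenced.

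Eosinophils are granulocytes that mature in the bone marrow under interleukin-5 and settle in the healthy intestine, where the eotaxin receptor CCR3 guides them into the lamina propria. They are best known for cationic granule proteins such as major basic protein and eosinophil peroxidase, and they also release cytokines, chemokines and lipid mediators made from arachidonic acid. Textbook functions are given for each gene below as background and not as a result.

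The values are the variance-stabilized log2 values that the authors deposited, called the deposited log2 level below, and 5.02 is the lowest value of the table and stands for a count of 0. Turning the transformation back gave counts, whose total per sample was 3842977 in WT F3, 6022410 at the median and 8149200 in WT M1. A count of 0 allows up to 3 counts, which corresponds to a level of 5.46 in WT M1 and of 5.65 in WT F3, and this limit covers counting error only. Of 22708 genes in the table, 13233 (58.3%) had at least 1 count in every WT sample and 1220 had none in any of the 6. Genes detected per sample numbered 15146 in WT F2, 15508 at the median and 20244 in WT F3. WT F3 had the lowest total and the most genes detected, and with all samples thinned to its total it still had 20244 against 14767 to 15807 in the other 5. Of the 22708 genes, 3021 (13.3%) had counts in WT F3 only among the WT samples, against 75 in WT M2 to 214 in WT F1 for genes found in a single other sample. Genes are ranked by their mean deposited level, which is not corrected for length, and other levels are compared between genes as mean normalized count per kilobase of exon, with percentiles among the 11074 genes that had an exon length and a mean of at least 6.02, which is 1 above the lowest value. The 11409 genes with such a mean are called the tested genes. Counts of list members below are to be read beside the shares of all tested genes, of which 13.7% were highest in WT M1, 12.4% in WT M2, 13.9% in WT M3, 24.4% in WT F1, 21.3% in WT F2 and 14.3% in WT F3. The shares that were lowest were 12.9% in WT M1, 11.9% in WT M2, 16.9% in WT M3, 22.8% in WT F1, 19.6% in WT F2 and 15.9% in WT F3.

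Markers of the labelled cell type were present in every sample. Ccr3, the eotaxin receptor, had a deposited log2 level between 13.14 in WT F1 and 13.88 in WT F2, with a median of 13.62. Il5ra, the alpha chain of the interleukin-5 receptor, lay between 10.45 in WT F1 and 11.40 in WT F2, with a median of 11.08 on the same scale of levels. Siglecf, a sialic acid-binding lectin and a marker of the sort, lay between 10.72 in WT F1 and 11.21 in WT M2, with a median of 11.09 as a deposited log2 level. All 3 markers were lowest in WT F1, and for Siglecf WT F3 was close to it. Per kilobase of exon the mean level was 3800 normalized counts for Ccr3, at percentile 99.4 of the tested genes. Siglecf held 746 normalized counts per kilobase and stood at percentile 95.5. Il5ra held 597 normalized counts per kilobase and stood at percentile 94.3.

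Genes known as markers of other cells were detected too, and their levels differed between samples. The 13 genes listed for pancreatic acinar cells had a summed normalized count of 83.2 in WT M1, 1507 at the median and 4701 in WT M3. Those of enterocytes summed to 6108 in WT F2, 9803 at the median and 22384 in WT F1, and those of goblet cells to 7328 in WT F2, 10973 at the median and 20576 in WT F1. The sum for Paneth cells was 5603 in WT M1, 8718 at the median and 23915 in WT M3. WT M3 was highest for acinar and Paneth markers and WT F1 for enterocyte and goblet markers, while WT M1 was lowest for acinar and Paneth markers and WT F2 for enterocyte and goblet markers. In bulk RNA, fewer cells of a type and less RNA per cell cannot be told apart. The part of these markers in the results below was not tested.

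A small set of genes took a large share of the counts in the sorted WT samples. Ranked by mean deposited log2 level over the 6 samples, the highest 100 genes took 28.7% ± 1.68 (SD, n = 6) of all counts, from 26.4% in WT M3 to 31.0% in WT F2. They included Dmbt1 and Lypd8, both highest in WT F1 and lowest in WT F2, as the enterocyte marker sum was. Which cells held these transcripts was not tested. Protein-coding genes made up 96 of these 100, beside 2 long noncoding RNAs (Malat1 and Neat1), the microRNA gene Mir6236 and a gene with no match in RefSeq. That unmatched gene ranked highest of all. It is the gene with Entrez ID 100861531, listed without a symbol, and no product is given for it here. Its deposited log2 level lay between 17.86 in WT M1 and 19.35 in WT F1, with a median of 18.89. Its share of all counts was 6.28% ± 2.03 (SD, n = 6). Malat1, a nuclear noncoding RNA, ranked next and had a deposited log2 level between 17.58 in WT M3 and 18.58 in WT F2, with a median of 18.02. WT M1 stood apart at the low end for the unmatched gene, and WT M3 was the lowest sample for Malat1. Mir6236 and Lars2, which is named below, were like the unmatched gene lowest in WT M1 and highest in WT F1, with WT F3 next. Their deposited log2 levels in WT M1 and WT F1 were 12.26 and 13.97 for Mir6236 and 14.05 and 15.33 for Lars2. Whether the reads counted for these genes reflect their own expression was not tested.

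Among the 30 genes with the highest mean level, there were mediators, enzymes, surface proteins and cytoskeletal genes. The cytokine gene Il1b had a deposited log2 level between 14.11 in WT M3 and 15.33 in WT F2, with a median of 14.93. Cxcl2, a chemokine that attracts neutrophils, lay between 14.28 in WT M3 and 15.31 in WT F3, with a median of 14.96 as a deposited log2 level. Rgs1, which dampens G protein signalling from chemokine receptors, had a level between 14.30 in WT F1 and 15.92 in WT F2, with a median of 15.27 on this scale. WT M3 was the lowest sample for Il1b and Cxcl2 and WT F1 for Rgs1. Cytoskeletal genes of this group were Actb, Tmsb4x (thymosin beta 4), Lcp1 (plastin) and Syne1 (nesprin 1), with SDs of 0.11, 0.19, 0.18 and 0.37 between the 6 samples as log2 differences. Enzymes were Tgm2 (transglutaminase 2), Alox15 (12/15-lipoxygenase), Ptgs2 (cyclooxygenase 2), Ncf1 (a subunit of the NADPH oxidase), Adamdec1 (a metalloprotease of intestinal myeloid cells) and Lars2 (mitochondrial leucyl-tRNA synthetase). Thbs1 (thrombospondin 1) and F5 (coagulation factor V) are secreted proteins. Surface proteins were Ptprc (CD45), Itgam, Itga4, Cd84 and the paired receptor Lilr4b, and the remaining named members were B2m, Srgn, Retnlg, Zfp36, Btg1, Dusp1, Lyst and Pim1. Among these 30 genes, Thbs1 had the largest spread, with a deposited log2 level between 12.99 in WT M3 and 15.82 in WT F2, with a median of 14.48. Ptgs2 followed, with a level between 12.63 in WT M3 and 15.27 in WT F2, with a median of 14.02 on this scale. Both were highest in WT F2 and lowest in WT M3.

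Compared between genes per kilobase of exon, the order changed. Retnlg, a resistin-like secreted protein known from granulocytes, had the highest value of all tested genes with a length, 59152 normalized counts per kilobase. Malat1 followed with 40418, B2m, the light chain of MHC class I, with 28167, and Actb with 24107 normalized counts per kilobase. The next 6 were Il1b, Tmsb4x, Cxcl2, Srgn, Lilr4b and Tyrobp, an adaptor of activating receptors, from 14204 normalized counts per kilobase for Tyrobp to 22139 for Il1b. On the deposited scale Retnlg had a level between 14.52 in WT F1 and 15.56 in WT F2, with a median of 15.11. WT F1 and WT F3 were the low samples for Retnlg. Of the 100 genes with the highest mean level, 54 were also among the 100 highest per kilobase. The gene with Entrez ID 100861531 has no exon length and could not be placed on this scale. Lilr4b and its near-identical neighbour Lilrb4a share sequence, and the split of reads between them is uncertain.

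Receptors for growth factors and surface proteins of eosinophils were all expressed. All 14 listed genes were tested, with a median level of 788 normalized counts per kilobase against 59.6 for all tested genes, and with a median SD of 0.26 against 0.26. Csf2rb, the beta chain shared by the receptors of interleukin-3, interleukin-5 and GM-CSF, had a deposited log2 level between 12.17 in WT M3 and 12.90 in WT F2, with a median of 12.69. Its near-identical copy Csf2rb2 lay between 10.63 in WT M3 and 11.49 in WT F2, with a median of 11.19 as a deposited log2 level, and the split between these copies is uncertain. Csf2ra, the alpha chain for GM-CSF, had a level between 10.86 in WT F1 and 11.58 in WT F2, with a median of 10.96 on this scale. Per kilobase of exon, Csf2rb had a mean level of 1209 normalized counts, Csf2ra 1186, Il5ra 597 and Il3ra, the alpha chain for interleukin-3, 8.94. Il3ra therefore stood at percentile 7.61 of the tested genes per kilobase, far below the other chains of this receptor family. Cd24a held 4042 normalized counts per kilobase, the tetraspanin Cd9 3103 and Adgre1, the F4/80 antigen, 2453. Il1rl1, the interleukin-33 receptor, held 18.2 normalized counts per kilobase. Cd22, a sialic acid-binding receptor known from B cells, had the largest spread of the list, with a deposited log2 level between 9.26 in WT F1 and 10.18 in WT M1, with a median of 9.62. Of the 14 genes, 9 were highest in WT F2 and 7 were lowest in WT F1, against 21.3% and 22.8% of all tested genes, and WT F1 was the sample in which enterocyte and goblet markers were highest.

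**Figure D1:**
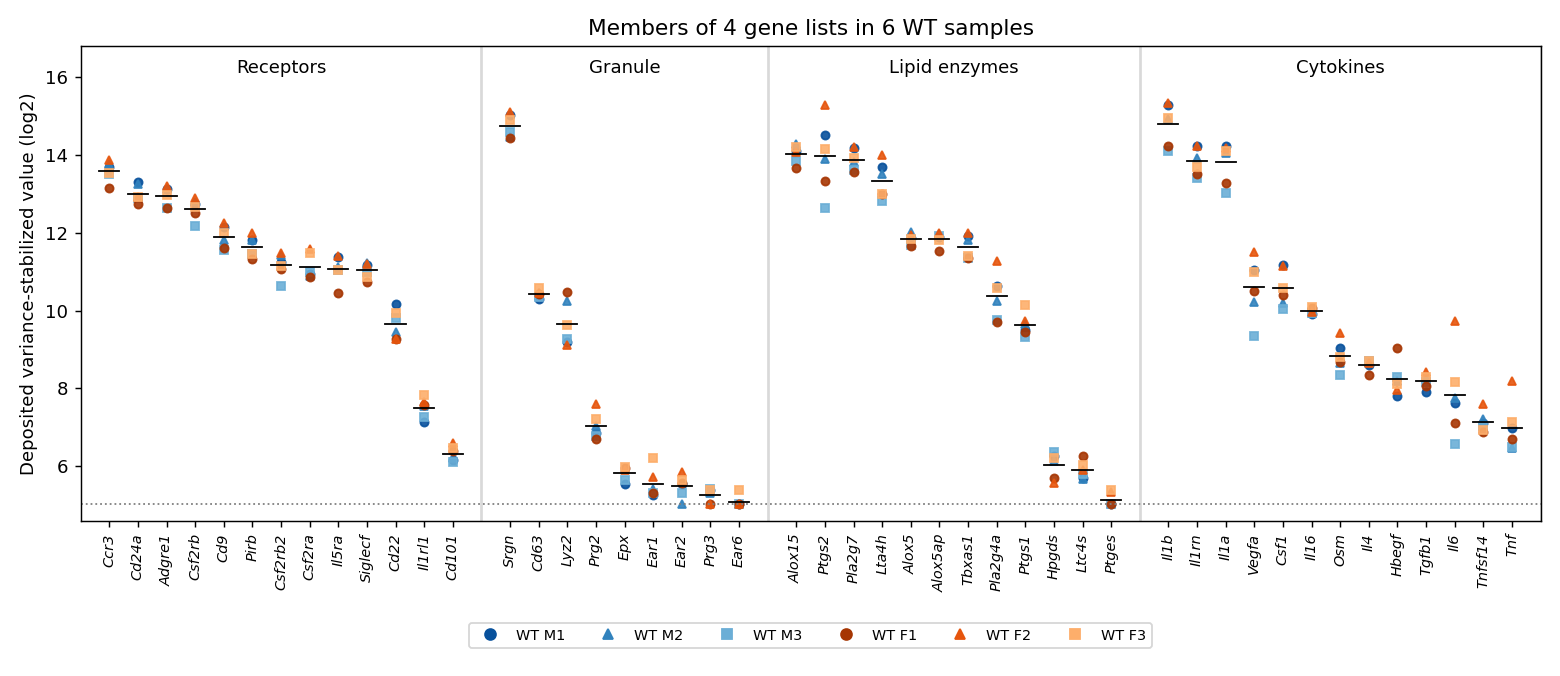
Deposited variance-stabilized values (log2, vertical axis) of up to 13 members with the highest mean of each of 4 gene lists, where each point is a WT sample, each black bar is the mean of 6 samples and the dotted line at 5.02 stands for a count of 0. Heights of different genes are not corrected for length. Srgn lay near 14.75 while Epx, Ear1, Ear2, Prg3 and Ear6 lay close to the dotted line, and WT M3 was the lowest sample for Ptgs2, Il1b and Vegfa.

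Transcripts of eosinophil peroxidase and of the eosinophil ribonucleases were scarce, while that of major basic protein was not far from the middle of the tested genes. Of the 9 granule genes found in the table, 4 were tested, with a median SD of 0.32 against 0.26 for all tested genes. Prg2, which encodes major basic protein, had a deposited log2 level between 6.69 in WT F1 and 7.61 in WT F2, with a median of 6.93. Epx, eosinophil peroxidase, lay between 5.53 in WT M1 and 5.97 in WT F3, with a median of 5.93 as a deposited log2 level. Ear1, a ribonuclease of the eosinophil family, had a level between 5.27 in WT M1 and 6.20 in WT F3, with a median of 5.36 on this scale. All 6 samples lay near the floor for Epx, and WT F3 and WT F2 were the high samples for Ear1. Prg3 and Ear6 were at 0 in some samples, and Ear1, Ear2 and Ear6 are near-identical copies whose reads are uncertain. Srgn, the proteoglycan core on which granule proteins are packed, and Cd63, a granule membrane protein, were abundant by contrast. Srgn held 15901 normalized counts per kilobase of exon and Cd63 911, against 91.7 for Prg2 (percentile 61.5 of the tested genes) and 4.06 for Epx. Lyz2, lysozyme of myeloid cells, had a deposited log2 level between 9.11 in WT F2 and 10.47 in WT F1, with a median of 9.46. WT F1 and WT M2 were the high samples for Lyz2, and these 2 samples also had the highest sums of goblet markers.

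Transcription factors of the myeloid lineage with the highest levels per kilobase were Spi1, Runx1 and Cebpe. Of 15 listed factors, 14 were tested, with a median level of 75.1 normalized counts per kilobase against 59.6 for all tested genes. Spi1, the gene of PU.1, had a deposited log2 level between 10.79 in WT F1 and 11.40 in WT F2, with a median of 11.23. Cebpe, needed for the late steps of granulocyte maturation, lay between 8.81 in WT M1 and 9.50 in WT M3, with a median of 9.21 as a deposited log2 level. Gata1, which specifies eosinophils, had a level between 7.19 in WT F2 and 8.09 in WT M2, with a median of 7.60 on this scale. WT F1 was the low sample for Spi1, WT M1 for Cebpe and WT F2 for Gata1. Corrected for exon length, Spi1 held 1130 normalized counts, Runx1 528, Cebpe 433, Gata1 72.3 and Gata2 63.1. Gata2 had the largest spread of the listed factors, with a deposited log2 level between 7.29 in WT M2 and 8.94 in WT F2, with a median of 8.04. WT F2 and WT F3 were the high samples for Gata2 and WT M2 the low sample. Id1, an inhibitor of helix-loop-helix factors, and Irf8, a factor of monocytes and dendritic cells, had SDs of 0.53 and 0.50 as log2 differences and were both highest in WT F1 and lowest in WT F2. Gfi1 missed the minimum, with a deposited log2 level between 5.50 in WT F1 and 6.45 in WT M2, with a median of 5.85.

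Interleukin-1 genes and their antagonist had the highest levels per kilobase of the cytokine list. Of 29 listed cytokines and growth factors, 16 were tested, with a median SD of 0.46 against 0.26 for all tested genes. As levels per kilobase of exon, Il1b held 22139 normalized counts, Il1a 7606 and Il1rn, the receptor antagonist, 5491. Il1a had a deposited log2 level between 13.02 in WT M3 and 14.24 in WT M1, with a median of 14.06. Il1rn lay between 13.41 in WT M3 and 14.23 in WT F2, with a median of 13.80 as a deposited log2 level. Agonists and antagonist were low in the same samples, WT M3 and WT F1. Vegfa, which drives the growth of blood vessels, had a deposited log2 level between 9.34 in WT M3 and 11.51 in WT F2, with a median of 10.74. Csf1, the growth factor of macrophages, lay between 10.05 in WT M3 and 11.18 in WT M1, with a median of 10.49 as a level on this scale. WT M3 was the low sample for both, and WT F2 and WT M1 were the high ones. Il4, a type 2 cytokine, was among the even members of the list, with a deposited log2 level between 8.35 in WT F1 and 8.71 in WT M3 and WT F3, with a median of 8.64. Il16 was more even still, with an SD of 0.08 as a log2 difference. The type 2 cytokine Il13 lay under the minimum, with a level between 5.30 in WT F1 and 6.30 in WT F2, with a median of 5.85 on the deposited scale. Il6 and Tnf spread widely. Il6 had a deposited log2 level between 6.56 in WT M3 and 9.73 in WT F2, with a median of 7.68. Tnf had a level between 6.47 in WT M2 and 8.20 in WT F2, with a median of 6.83 on the same scale. WT F2 stood above the other 5 samples for Il6 and Tnf. No count of Csf2 was found in any of the 6 samples, and Il5, Ifng and Il12b had counts in WT F3 only among these samples, as did 13.3% of all genes in the table. Of the 16 tested members, 8 were highest in WT F2 and 7 lowest in WT M3.

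Chemokine transcripts with the highest levels per kilobase were Cxcl2, Cxcl3, Ccl6 and Ccl3. Of 19 listed chemokines, 10 were tested, with a median SD of 0.37 against 0.26 for all tested genes. When divided by exon length, Cxcl2 held 16894 normalized counts, Cxcl3 7059, Ccl6 3853, Ccl3 2252 and Ccl4 965. Cxcl3, like Cxcl2 a ligand of CXCR2, had a deposited log2 level between 12.25 in WT M3 and 13.33 in WT F2, with a median of 12.74. Ccl6 lay between 11.83 in WT M3 and 12.92 in WT F2, with a median of 12.39 as a deposited log2 level. Cxcl10, a ligand of CXCR3 induced by interferon, had a level between 8.21 in WT M3 and 10.08 in WT F2, with a median of 9.49 on this scale. WT M3 was the lowest sample for Cxcl3, Ccl6 and Cxcl10, and WT F2 the highest. The eotaxins that act on CCR3 were low, with Ccl11 at 0 in the 3 male samples. Ccl11 had a deposited log2 level between 5.02 in 3 samples and 5.96 in WT F2, with a median of 5.22. Ccl24 was above the lowest value in WT M3 only among the 6 samples, at 5.30 on the deposited log2 scale.

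Genes of NF-kB signalling, which drives inflammatory transcription, were mostly lowest in WT M3. All 12 listed genes were tested, with a median level of 326 normalized counts per kilobase against 59.6 for all tested genes and a median SD of 0.43 against 0.26. Tnfaip3, the deubiquitinating enzyme A20 that restrains NF-kB, had a deposited log2 level between 12.69 in WT M3 and 14.40 in WT F2, with a median of 13.86. Nfkbia, the inhibitor IkB alpha, lay between 10.35 in WT M3 and 11.33 in WT F2, with a median of 11.20 as a deposited log2 level. Nfkbiz, an atypical nuclear inhibitor of the same family, had a level between 10.64 in WT M3 and 13.17 in WT M1, with a median of 12.29 on this scale. WT M3 was the lowest sample for these 3 genes and for 9 of the 12. The median deviation of the 12 genes from their means was -0.62 in WT M3, 0.41 in WT F2 and 0.35 in WT M1 as log2 differences, while that of all tested genes lay between -0.02 and 0.00. WT F2 was highest for 9 of the 12 and WT M1 for the other 3. The acinar and Paneth marker sums were highest in WT M3, and their part in this difference was not tested. Rela, the p65 subunit, did not follow and had a deposited log2 level between 7.79 in WT F1 and 8.24 in WT F2, with a median of 8.01. Nfkb1 was also lowest in WT F1, and Nfkbib was lowest in WT M2.

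Promoters of members that were low in WT M3 are shown with the 9 letters GGAATTTCC, part of the sequence that NF-kB proteins are known to bind, in capitals on either strand. Sequences are from RefSeq, run 5′ to 3′ and cover 250 bases before to 50 after the most upstream RefSeq transcript start that the promoter set gives for the gene, on build GRCm38.p6. The Nfkbia promoter lies at chr12:55492598-55492897 on the minus strand, that of Tnfaip3 at chr10:19015361-19015660 on the minus strand and that of Cxcl2 at chr5:90903649-90903948 on the plus strand. These letters were found in 104 of all 32851 promoters (0.317%), in at least 1 promoter of 2 of the 9 NF-kB genes with a promoter and of 4 of the 12 chemokines (Cxcl1, Cxcl2, Cxcl3 and Cxcl10). Here and for the promoters printed further on, 14 motifs had been searched in promoters of 45 genes chosen after the values were seen, and motifs and genes with matches were kept. A match in a gene shown therefore follows from this choice, and the shares of all promoters do not measure how unusual it is. The letters are contained in longer kB motifs, and a match is not a site.
Nfkbia: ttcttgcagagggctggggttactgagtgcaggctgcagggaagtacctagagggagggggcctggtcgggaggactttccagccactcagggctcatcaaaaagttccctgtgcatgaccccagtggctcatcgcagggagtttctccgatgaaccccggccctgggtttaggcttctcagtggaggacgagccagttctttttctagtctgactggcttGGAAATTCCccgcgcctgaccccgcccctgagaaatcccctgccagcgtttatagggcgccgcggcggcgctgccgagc
Tnfaip3: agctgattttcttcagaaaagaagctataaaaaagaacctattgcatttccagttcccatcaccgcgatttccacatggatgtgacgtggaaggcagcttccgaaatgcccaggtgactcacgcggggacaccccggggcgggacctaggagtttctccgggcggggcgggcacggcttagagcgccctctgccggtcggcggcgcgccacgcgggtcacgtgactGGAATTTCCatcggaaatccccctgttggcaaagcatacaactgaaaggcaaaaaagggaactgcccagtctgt
Cxcl2: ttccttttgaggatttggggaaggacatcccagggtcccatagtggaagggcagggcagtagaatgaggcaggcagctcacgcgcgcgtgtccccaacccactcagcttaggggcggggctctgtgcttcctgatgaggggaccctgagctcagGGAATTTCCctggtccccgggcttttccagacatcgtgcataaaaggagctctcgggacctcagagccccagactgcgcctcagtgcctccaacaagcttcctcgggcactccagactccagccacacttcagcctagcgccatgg

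Immediate early genes, which are transcribed within minutes of a stimulus, were detected in every sample. All 26 listed genes were tested, with a median level of 310 normalized counts per kilobase against 59.6 for all tested genes and a median SD of 0.42 against 0.26. In levels per kilobase, the phosphatase Dusp1 held 8639 normalized counts, Zfp36, which destabilizes cytokine transcripts, 6511, Fos 2847 and Egr1 795. Egr1 had a deposited log2 level between 10.68 in WT F2 and 12.77 in WT M3, with a median of 11.51. Fosl2, a partner of Jun proteins, lay between 10.36 in WT M3 and 12.25 in WT M1, with a median of 11.30 as a deposited log2 level. Fosb had a level between 9.87 in WT M3 and 11.98 in WT M1, with a median of 11.06 on this scale. The members did not share an order of samples, since Egr1 was highest in WT M3 while Fosl2 and Fosb were lowest there. Orphan nuclear receptors of the NR4A family were similar among themselves. Nr4a1 had a deposited log2 level between 9.98 in WT M3 and 11.60 in WT F2, with a median of 10.65. Nr4a2 lay between 8.13 in WT M3 and 9.95 in WT F2, with a median of 8.88 as a deposited log2 level. Nr4a3 had a level between 8.09 in WT M2 and 10.03 in WT F2, with a median of 9.04 on this scale. WT F2 was highest and WT M1 next for all 3, and the lowest value fell in WT M2 or WT M3. Of the 26 genes, 11 were lowest in WT M3 and 8 highest in WT M1, against 16.9% and 13.7% of all tested genes.

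The NR4A promoters are printed with the 5 letters TGACG, the core of the element bound by CREB family factors, in capitals on either strand, chosen because all 3 hold it. They are from RefSeq on build GRCm38.p6 and run 5′ to 3′. Nr4a1 lies at chr15:101266596-101266895 on the plus strand, Nr4a2 at chr2:57123954-57124253 on the minus strand and Nr4a3 at chr4:48045055-48045354 on the plus strand. The Nr4a1 and Nr4a3 stretches are at starts inside the longest span annotated for these genes. Each of the 3 promoters held 4 matches. At least 1 match was found in 6837 of 32851 promoters (20.8%) and 4 or more in 76 (0.231%). In the list of immediate early genes, 14 of 21 genes with a promoter held a match. The letters are part of a longer palindromic element, and no factor's binding was measured.
Nr4a1: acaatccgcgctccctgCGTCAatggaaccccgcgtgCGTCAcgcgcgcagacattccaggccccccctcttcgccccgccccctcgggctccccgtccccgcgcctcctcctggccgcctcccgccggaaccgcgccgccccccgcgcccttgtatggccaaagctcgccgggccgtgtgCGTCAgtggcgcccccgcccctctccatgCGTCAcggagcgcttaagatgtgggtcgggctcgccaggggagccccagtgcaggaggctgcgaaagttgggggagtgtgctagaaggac
Nr4a2: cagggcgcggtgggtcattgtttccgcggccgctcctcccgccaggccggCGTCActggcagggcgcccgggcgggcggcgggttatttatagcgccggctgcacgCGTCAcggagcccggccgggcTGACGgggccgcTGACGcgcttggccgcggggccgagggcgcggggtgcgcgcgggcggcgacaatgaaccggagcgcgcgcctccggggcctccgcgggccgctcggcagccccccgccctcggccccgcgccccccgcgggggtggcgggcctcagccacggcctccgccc
Nr4a3: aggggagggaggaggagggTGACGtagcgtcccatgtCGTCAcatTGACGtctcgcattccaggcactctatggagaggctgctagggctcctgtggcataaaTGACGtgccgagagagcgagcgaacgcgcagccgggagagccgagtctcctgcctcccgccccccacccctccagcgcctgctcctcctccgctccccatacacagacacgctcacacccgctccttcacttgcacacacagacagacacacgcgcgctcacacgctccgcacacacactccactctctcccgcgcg

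The listed receptors for chemoattractants other than Ccr3, which is described above, had their highest level per kilobase in Ptafr, the receptor of platelet-activating factor. Of 23 listed receptors, 15 were tested, with a median SD of 0.39 against 0.26 for all tested genes. Ptafr had a deposited log2 level between 12.89 in WT M3 and 13.75 in WT F2, with a median of 13.35. Cxcr2, the receptor of CXCL2, lay between 8.95 in WT F2 and 9.32 in WT M3, with a median of 9.16 as a deposited log2 level. Ccr1 had a level between 9.76 in WT F1 and 10.87 in WT M2, with a median of 10.52 on this scale. WT F2 was the highest sample for Ptafr and the lowest for Cxcr2, and WT F1 was the lowest for Ccr1. Per kilobase of exon, Ptafr held 2846 normalized counts, Cxcr4, the receptor of CXCL12, 1743, Ccr1 480, Cxcr2 164 and Ltb4r1, a leukotriene B4 receptor, 140. Ptgdr2, the prostaglandin D2 receptor CRTH2, held 55.2 normalized counts per kilobase. Hrh4, the histamine H4 receptor, lay under the minimum with a deposited log2 level between 5.02 in 3 samples and 5.72 in WT M2, with a median of 5.16.

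Enzymes that make lipid mediators had high levels per kilobase, with 10 of the 12 genes in the table tested and a median level of 1989 normalized counts per kilobase against 59.6 for all tested genes. Alox15, which oxygenates arachidonic acid, had a deposited log2 level between 13.66 in WT F1 and 14.28 in WT M2, with a median of 14.08. Pla2g7, the hydrolase that inactivates platelet-activating factor, lay between 13.56 in WT F1 and 14.19 in WT F2, with a median of 13.86 as a deposited log2 level. Lta4h, which makes leukotriene B4, had a level between 12.82 in WT M3 and 14.00 in WT F2, with a median of 13.25 on this scale. Ptgs2 and Pla2g4a, cytosolic phospholipase A2, had the largest spreads of the list at 0.92 and 0.59 as SDs of log2 levels. Both were highest in WT F2. Ptgs1, the constitutive cyclooxygenase, had an SD of 0.29 on the same scale and was highest in WT F3. Corrected for exon length, Pla2g7 held 7256 normalized counts, Alox15 6962, Lta4h 5282, Alox5ap 2700 and Alox5 1278. Terminal synthases differed, with Tbxas1, thromboxane synthase, at 1021 normalized counts per kilobase, Ltc4s, leukotriene C4 synthase, at 19.7 and Hpgds, prostaglandin D synthase of blood cells, at 5.32. Ltc4s had a deposited log2 level between 5.66 in WT M2 and 6.25 in WT F1, with a median of 5.85. Hpgds lay between 5.57 in WT F2 and 6.36 in WT M3, with a median of 6.17 as a deposited log2 level. Ptges, a prostaglandin E synthase, was above the lowest value only in WT F2 and WT F3 among these samples. Of the 10 tested genes, 6 were highest in WT F2 and 6 lowest in WT F1.

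Pattern recognition genes included Tlr13, a sensor of bacterial ribosomal RNA, as the member with the highest level per kilobase. Of 23 listed genes, 18 were tested, with a median SD of 0.31 against 0.26 for all tested genes. Tlr13 had a deposited log2 level between 10.99 in WT M2 and 11.49 in WT F3, with a median of 11.21. Ifih1, which senses double-stranded RNA as MDA5, lay between 10.22 in WT F1 and 10.62 in WT M1, with a median of 10.39 as a deposited log2 level. Neither showed a sample far from the others. As levels per kilobase of exon, Tlr13 held 568 normalized counts, against 71.5 for Tlr6, 25.4 for Tlr3 and 4.76 for Tlr4. Tlr2, Tlr5, Tlr7, Tlr8 and Tlr9 fell under the minimum mean. Clec4e, the lectin receptor Mincle, had the largest spread of the list, with an SD of 0.98 as a log2 difference. Clec4d, a lectin receptor of the same family, had an SD of 0.60 on this scale of differences. WT M1 was high and WT M3 low for both lectins. Pycard, the inflammasome adaptor, had a deposited log2 level between 9.17 in WT F2 and 10.53 in WT F1, with a median of 9.62.

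Inhibitory and paired receptors were well represented, with 13 of 15 genes in the table tested and a median level of 830 normalized counts per kilobase against 59.6 for all tested genes. Cd274, the ligand PD-L1, had a deposited log2 level between 11.51 in WT M3 and 13.73 in WT F2, with a median of 12.82. Lilrb4a lay between 12.41 in WT M3 and 13.97 in WT F2, with a median of 13.17 as a deposited log2 level. Sirpa, the receptor of CD47, had a level between 12.91 in WT F2 and 13.08 in WT M2, with a median of 12.97 on this scale. Cd274 and Lilrb4a were highest in WT F2 and lowest in WT M3, whereas Sirpa was nearly the same in all 6 samples. When divided by exon length, Lilrb4a held 7025 normalized counts, Cd274 2131, Cd300lf 2118, Sirpa 1903 and Cd300a 1092. Lilr4b, the paired receptor described above, was not counted among the listed genes and held 14507 normalized counts per kilobase. Of the 13 tested genes, 7 were highest in WT F2. Clec4a1 and Clec4a3 fell under the minimum mean.

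Genes of the AHR pathway, a ligand-activated sensor of dietary and microbial compounds, had their highest level per kilobase in the receptor itself. Of 11 listed genes, 8 were tested, with a median SD of 0.34 against 0.26 for all tested genes. In levels per kilobase, Ahr held 2740 normalized counts, its target Tiparp 1341, its partner Arnt 267 and the repressor Ahrr 222. Cyp1b1, a cytochrome P450 induced by the receptor, had the largest spread of the list, with a deposited log2 level between 8.68 in WT F1 and WT F2 and 10.23 in WT M2, with a median of 9.60. WT F1 and WT F2 were both low for Cyp1b1, and the other 4 samples were higher by more than 0.5 as a log2 difference. Ahrr spread less, with an SD of 0.20 as a log2 difference. No count of Cyp1a1 was found in any of the 6 samples.

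Proteases of the extracellular matrix and their inhibitors included Adam19, Mmp25 and Mmp9. Of 22 listed genes, 14 were tested, with a median SD of 0.30 against 0.26 for all tested genes. Mmp25, a membrane-anchored protease of leukocytes, had a deposited log2 level between 13.04 in WT F1 and 13.47 in WT M2, with a median of 13.36. Mmp9, gelatinase B, lay between 11.76 in WT F1 and 12.07 in WT M2, with a median of 11.89 as a deposited log2 level. Both proteases varied little, with WT F1 the lowest sample and WT M2 the highest for each. Per kilobase of exon, Mmp25 held 2220 normalized counts, Plaur, the urokinase receptor, 2205, Adam8 1986, Adam19 1915 and Mmp9 1184. Timp1 fell under the minimum mean, while Timp2 was tested and held 37.0 normalized counts per kilobase.

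Integrins and adhesion molecules were expressed broadly, with 19 of 20 tested, a median level of 293 normalized counts per kilobase against 59.6 for all tested genes and a median SD of 0.23 against 0.26. Corrected for exon length, Cd84, a homophilic receptor of leukocytes, held 3716 normalized counts, Itgam, which the gate selects through CD11b, 3453, Itga4 1828, Cd44 1697 and Itgax, the gene of CD11c, 1616. Itga4, the alpha chain of VLA-4, had a deposited log2 level between 13.64 in WT F1 and 14.60 in WT M1, with a median of 14.08. Itgax lay between 12.51 in WT F1 and 12.99 in WT M1, with a median of 12.76 as a deposited log2 level. Itga6, a laminin receptor chain also found in epithelium, had a level between 8.67 in WT M1 and 10.05 in WT F1, with a median of 8.84 on this scale. Itga4 and Itgax were lowest in WT F1, where Itga6 was highest, with WT M3 next. Of the 19 tested genes, 10 were highest in WT F2 and 9 lowest in WT F1, against 21.3% and 22.8% of all tested genes. Itgae, known from lymphocytes of the epithelium, held 4.80 normalized counts per kilobase, and Itgb5 held 4.15 and fell under the minimum mean. Selplg, a selectin ligand, was the most even member, with an SD of 0.07 as a log2 difference.

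Genes of survival and death with the highest levels per kilobase were Mcl1 and Birc3. Of 17 listed genes, 16 were tested, with a median SD of 0.31 against 0.26 for all tested genes. Mcl1, an antiapoptotic relative of BCL2 with a short life, had a deposited log2 level between 12.80 in WT F1 and 13.60 in WT M1, with a median of 13.13. Birc3, an inhibitor of apoptosis, lay between 12.57 in WT M3 and 13.41 in WT M1, with a median of 13.02 as a deposited log2 level. Bcl2l11, the gene of the proapoptotic BIM, had a level between 8.97 in WT M3 and 11.59 in WT F2, with a median of 10.22 on this scale. WT M1 was the highest sample for Mcl1, and WT F2 stood highest and WT M3 lowest for Bcl2l11. As levels per kilobase of exon, Mcl1 held 2690 normalized counts, Birc3 2004, Pmaip1, the gene of NOXA, 1064, Bcl2 29.3 and Bcl2l1, which encodes BCL-XL, 13.1. Bcl2a1a, Bcl2a1b and Bcl2a1d are near-identical copies, and their separate values are uncertain.

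Antigen presentation differed by class. All 6 listed class I genes were tested, with a median level of 1507 normalized counts per kilobase and a median SD of 0.20. H2-K1 had a deposited log2 level between 12.51 in WT M3 and 13.20 in WT F2, with a median of 12.84. Class II and costimulation gave 9 tested genes of 10, with a median level of 100 normalized counts per kilobase and a median SD of 0.48. H2-Aa, a class II chain, had a deposited log2 level between 8.06 in WT F1 and 10.10 in WT M2, with a median of 8.93. The gate removed cells positive for the class II protein, and WT M2 was the highest sample for H2-Aa, H2-Ab1, H2-Eb1 and Cd74. Cd80, a costimulatory ligand, lay between 11.22 in WT M3 and 12.39 in WT M1, with a median of 11.98 as a deposited log2 level. When divided by exon length, H2-K1 held 4472 normalized counts, Cd80 1071, H2-Aa 435 and Cd86 99.7.

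The NADPH oxidase, which produces superoxide, was expressed with all of its 6 listed genes tested and a median level of 1646 normalized counts per kilobase against 59.6 for all tested genes. Ncf1 held 6063 normalized counts per kilobase of exon and Cybb, the catalytic subunit, 2841. Cybb had a deposited log2 level between 13.41 in WT F1 and 13.98 in WT F2, with a median of 13.71. Interferon-stimulated genes gave 10 tested of 14, with a median level of 143 normalized counts per kilobase against 59.6 for all tested genes. Ifit1, Ifit2, Ifit3 and Mx1 fell under the minimum mean. Of the 10 tested, 6 were lowest in WT M3 and the other 4 in WT M1, against 16.9% and 12.9% of all tested genes.

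Glycolysis was among the most even groups, with all 17 genes tested, a median level of 285 normalized counts per kilobase and a median SD of 0.19 against 0.26 for all tested genes. Gpi1, glucose phosphate isomerase, was the most even of these genes, with a deposited log2 level between 11.26 in WT M1 and 11.40 in WT F3, with a median of 11.33. Ldha, lactate dehydrogenase A, had the highest level per kilobase of the list, 2816 normalized counts, and was highest in WT F1. Clock genes gave 11 tested of 13, with a median SD of 0.30 against 0.26 for all tested genes. Per1, a light- and stimulus-induced member, had a deposited log2 level between 9.59 in WT M3 and 11.17 in WT F2, with a median of 10.43. Nr1d1 had a level between 5.53 in WT F3 and 6.93 in WT F1, with a median of 6.11 on this scale, and Dbp fell under the minimum mean. WT F2 was the highest sample for Per1 and Bhlhe40, and the labels give no hour of collection. Among 10 reference genes the median SD was 0.20, Actb had the smallest SD at 0.11, and Eef1a1 the largest at 0.34 as log2 differences.

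Genes of the cell cycle were detected in all samples, and most were highest in WT F1 or WT M3. All 17 listed genes were tested, with a median level of 47.3 normalized counts per kilobase against 59.6 for all tested genes. Mki67, a protein of dividing cells, had a deposited log2 level between 11.12 in WT M2 and 11.93 in WT M3, with a median of 11.33. Top2a, topoisomerase II alpha, lay between 9.12 in WT M2 and 10.62 in WT F1, with a median of 9.46 as a deposited log2 level. Ccna2, cyclin A2, had a level between 7.34 in WT F2 and 9.06 in WT F1, with a median of 7.96 on this scale. Of the 17 genes, 12 were highest in WT F1 and 4 in WT M3. The median deviation was 0.48 in WT F1 and 0.35 in WT M3, against -0.34 in WT M2, as log2 differences. Enterocyte markers were highest in WT F1 and next highest in WT M3, and their part in this was not tested.

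Heat shock genes had the largest median SD of the role lists other than the sex-linked genes. All 11 listed genes were tested, and their median SD was 0.70 against 0.26 for all tested genes. Hspa1a, an inducible HSP70, had a deposited log2 level between 5.85 in WT M1 and 10.20 in WT F1, with a median of 7.04. Hsph1, its nucleotide exchange factor, lay between 7.74 in WT M1 and 10.54 in WT F1, with a median of 8.94 as a deposited log2 level. Dnajb1, an HSP40 cochaperone, had a level between 7.94 in WT M1 and 10.23 in WT F1, with a median of 8.59 on this scale. WT F1 was the highest sample for 9 of the 11 genes, and WT M1 or WT F2 was the lowest for 10 of them. The median deviation was 0.83 in WT F1, 0.39 in WT M3, -0.64 in WT F2 and -0.71 in WT M1 as log2 differences. Dnaja1 differed from this pattern and was highest in WT M1. Hspa1a and Hspa1b are near-identical copies, and the split of reads between them is uncertain. WT F1 also had the highest enterocyte and goblet sums, whose part in this was not tested.

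Promoters of Hspa1a and Hsph1, the members with the largest SD apart from the copy Hspa1b, are printed with the letters GAANNTTC, a minimal heat shock element of inverted GAA units, in capitals on either strand. They are from RefSeq on build GRCm38.p6 and run 5′ to 3′ around the most upstream start given, which for Hsph1 lies inside the longest span annotated, with Hspa1a at chr17:34972107-34972406 on the minus strand and Hsph1 at chr5:149636287-149636586 on the minus strand. The letters were found in 2582 of 32851 promoters (7.86%) and in at least 1 promoter of 6 of the 8 genes of the list with a promoter. The motif reads the same on both strands and is part of longer heat shock elements.
Hspa1a: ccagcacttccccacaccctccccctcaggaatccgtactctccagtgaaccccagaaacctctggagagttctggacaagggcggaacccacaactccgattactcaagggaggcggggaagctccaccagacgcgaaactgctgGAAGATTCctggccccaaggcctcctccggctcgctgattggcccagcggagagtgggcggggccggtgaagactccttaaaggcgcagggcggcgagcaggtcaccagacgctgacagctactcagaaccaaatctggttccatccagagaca
Hsph1: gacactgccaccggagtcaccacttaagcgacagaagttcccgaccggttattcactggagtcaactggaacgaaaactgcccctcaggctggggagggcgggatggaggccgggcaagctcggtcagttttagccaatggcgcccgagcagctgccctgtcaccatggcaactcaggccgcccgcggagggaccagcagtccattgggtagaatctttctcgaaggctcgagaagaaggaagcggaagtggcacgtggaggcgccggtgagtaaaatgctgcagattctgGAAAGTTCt

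Most tested genes spread little between the samples on the deposited scale. The median SD of the tested genes was 0.26 with quartiles at 0.19 and 0.34 as log2 differences. An SD above 0.5 was found for 756 genes (6.63%) and above 1 for 35 (0.307%). The count above 0.5 depends on the scale and on the minimum, since it was 3446 with log2 of normalized count plus 1 and 1621 without a minimum mean. The share above 0.5 was 6.29% of 3166 genes with a mean level from 6.02 up to 7, and 20.3% of the 79 genes with a mean level of at least 13. The most even genes of the upper part of the means, those above 7.89, were Wdr1, Lamp1, Anapc5, Tmem33, Zfp598, Uggt1, Nup155, Hsd17b4, Nono and Otud7b. Wdr1, which disassembles actin filaments, had a deposited log2 level between 10.52 in WT F1 and 10.62 in WT F2, with a median of 10.58. Lamp1, a lysosomal membrane protein, lay between 11.40 in WT F2 and 11.49 in WT F1, with a median of 11.44 as a deposited log2 level. No sample stood out for these 10 genes, whose SDs lay between 0.03 and 0.05 as log2 differences.

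**Figure D2:**
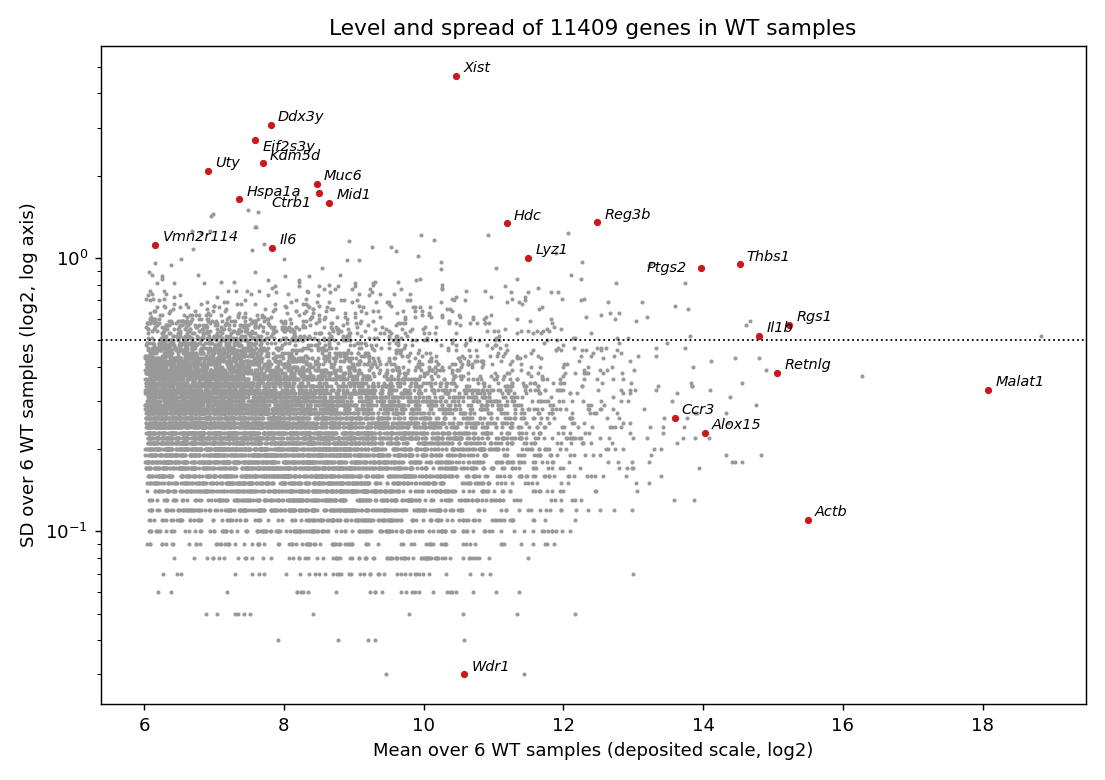
Mean over 6 WT samples (horizontal axis, deposited log2 scale) against the SD over the same samples (vertical axis, log2, drawn on a log axis) for each of 11409 tested genes as a grey point, with 24 named genes in red. The dotted line marks an SD of 0.5, above which 756 genes lie. Xist and 4 genes of the Y chromosome are at the top, and Actb combines a high mean with an SD of 0.11.

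The genes with the largest spread fell into a few sets that peaked in different samples. Beside Xist and the 4 Y-linked genes Ddx3y, Eif2s3y, Kdm5d and Uty, the 30 largest SDs included digestive enzymes, epithelial defence genes, heat shock genes and inducible immune genes. Digestive enzymes were Ctrb1, 2210010C04Rik, Cpb1, Pnlip, Cela1, Cpa1, Cel, Cela2a and Rnase1, all highest in WT M3. Ctrb1, chymotrypsinogen B, had a deposited log2 level between 6.10 in WT M1 and 10.78 in WT M3, with a median of 8.94. Reg3b, an antibacterial lectin of the epithelium, lay between 10.67 in WT F2 and 13.88 in WT M3, with a median of 12.86 as a deposited log2 level. Defa23, Defa38 and Defa39, alpha defensins of Paneth cells, were highest in WT M3 and lowest in WT M1, and as near-identical copies their separate values are uncertain. Inducible genes included Hdc, Acod1, Ell2 and Il6, all 4 highest in WT F2 and lowest in WT M3. Hdc, which makes histamine, had a deposited log2 level between 9.22 in WT M3 and 12.96 in WT F2, with a median of 11.26. Acod1, which makes itaconate, had a level between 7.90 in WT M3 and 11.28 in WT F2, with a median of 9.96 on this scale. Mucus genes Muc6 and Tff2, products of gastric and duodenal glands, formed another set. Muc6 had a deposited log2 level between 5.92 in WT F1 and 10.23 in WT F2, with a median of 9.30. Tff2 lay between 5.74 in WT F1 and 8.85 in WT M2, with a median of 8.09 as a deposited log2 level. WT F1 and WT F3 were low for Muc6 and Tff2, and the other 4 samples were high. Mid1, an X-linked ubiquitin ligase, and Vmn2r114, a vomeronasal receptor gene, were highest in WT F3. Mid1 had a deposited log2 level between 7.33 in WT M1 and 11.65 in WT F3, with a median of 8.12. Vmn2r114 had a level between 5.50 in WT M3 and 8.44 in WT F3, with a median of 5.78 on this scale. Jchain, the joining chain of IgA made by plasma cells, had a level between 7.91 in WT M3 and 10.79 in WT F2, with a median of 9.06. Of the 100 genes with the largest SD, 31 were highest in WT M3, 28 in WT F2 and 20 in WT F1, and 34 were lowest in WT M3 and 32 in WT M1. With WT M3 left out, 65 of these 100 genes were found again among the 100 with the largest SD. The choice depends on the measure. Of these genes, 60 were found again with a minimum mean of 3 above the lowest value, and 29 by coefficient of variation beyond counting error.

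**Figure D3:**
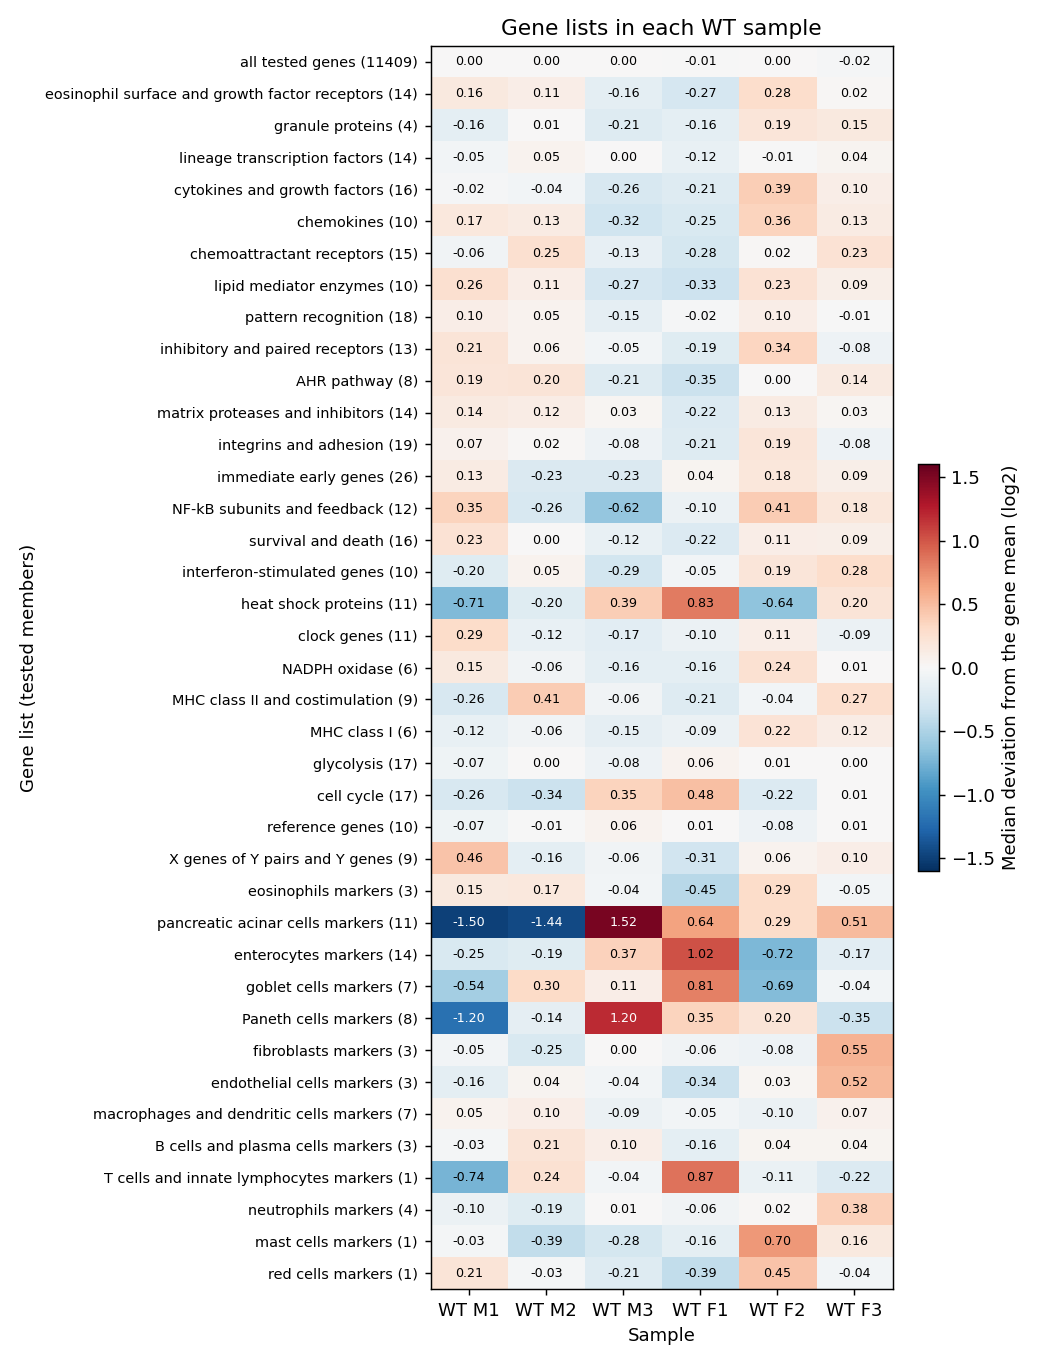
Median deviation of the tested members of each gene list (vertical axis, number of members in brackets) from each gene's mean over 6 WT samples (log2, colour and printed value) in each sample (horizontal axis). Acinar markers reach 1.52 in WT M3 and -1.50 in WT M1, heat shock proteins 0.83 in WT F1, and all tested genes lie between -0.02 and 0.00.

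Digestive enzymes of the pancreas were the marker list with the widest spread. Of 13 acinar markers, 11 were tested, and 11 of these 11 were highest in WT M3, with Ctrb1 the most abundant per kilobase. WT M1 was the lowest sample for 8 of them and WT M2 for the other 3. The summed normalized count differed 56.5-fold between WT M3 and WT M1 and made up 0.0659% of all counts in WT M3. Pnlip, pancreatic lipase, had a deposited log2 level between 5.02 in WT M1 and 8.79 in WT M3, with a median of 7.36. Prss2, a trypsinogen, lay between 5.02 in WT M1 and 7.88 in WT M3, with a median of 6.98 as a deposited log2 level. Pnlip, Prss2, Cel and Try4 had no count in WT M1, and Amy2a5, pancreatic amylase, was at 0 in 4 of the 6 samples. Paneth cell markers followed the same sample at the top, with 8 of 8 tested and 8 highest in WT M3, and with 7 lowest in WT M1. Lyz1, lysozyme of Paneth cells, had a deposited log2 level between 10.07 in WT M1 and 12.98 in WT M3, with a median of 11.67. Reg3g was the most abundant of this list per kilobase and had a deposited log2 level between 10.61 in WT F2 and 13.14 in WT M3, with a median of 12.18. None of the 8 Paneth markers was at 0 in any of the 6 samples.

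Absorptive and goblet cell genes were highest in WT F1. Of 14 enterocyte markers, 14 were tested, 14 were highest in WT F1 and 10 were lowest in WT F2. Krt19, a keratin, was the most abundant per kilobase, at 1310 normalized counts. Sis, sucrase-isomaltase, had a deposited log2 level between 9.93 in WT F2 and 11.58 in WT F1, with a median of 10.99. Epcam, an epithelial adhesion protein, lay between 9.50 in WT F2 and 11.17 in WT F1, with a median of 10.05 as a deposited log2 level. All 7 goblet markers were tested, 7 were highest in WT F1 and 5 were lowest in WT F2. Zg16, a lectin of mucus granules, was the most abundant per kilobase among the 6 of these with a length, at 2863 normalized counts. Muc2, the main mucin of the intestine, had a deposited log2 level between 11.17 in WT M1 and 12.55 in WT F1, with a median of 11.62. None of these 21 genes was at 0 in any of the 6 samples. In the same sample WT F1 the 3 eosinophil markers were lowest, with a summed normalized count of 11915 against 15656 to 19882 in the other 5.

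Stromal markers were low, and lymphoid markers were low except Jchain, at 517 normalized counts per kilobase (percentile 93.3 of the tested genes). Fibroblast markers gave 3 tested of 6 and a summed normalized count of 49.8 in WT M2, 85.7 at the median and 202 in WT F3, with Col3a1 the most abundant tested gene per kilobase and Pdgfra at 0 in 4 of the 6 samples. Endothelial markers gave 3 tested of 6 and a sum from 59.3 in WT F1 to 200 in WT F3, with Cdh5 the most abundant tested gene per kilobase and no marker at 0. WT F3 was highest for both lists, and it was also the only WT sample with counts for 13.3% of all genes in the table. B and plasma cell markers gave 3 tested of 7 and a sum of 293 in WT M3, 588 at the median and 1834 in WT F2, with Jchain the most abundant per kilobase. Jchain made up most of this sum, with a mean of 720 normalized counts against 836 for the list. The range of the sum is therefore largely that of Jchain. The 3 tested members peaked in different samples, Jchain in WT F2 and the others in WT M3 and WT F1. T cell and innate lymphocyte markers gave 1 tested of 10 and a sum of 23.1 in WT M1, 94.8 at the median and 182 in WT F3. Cd3e, the T cell receptor's signalling chain, was at 0 in WT M1 and WT F2. Immunoglobulin and T cell receptor constant genes were not found in the table by symbol.

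Myeloid markers of other types were mixed. Macrophage and dendritic cell markers gave 7 tested of 11 and a summed normalized count of 1008 in WT M3, 1162 at the median and 1228 in WT F2, a 1.22-fold range, with Cd68 the most abundant tested gene per kilobase and Xcr1 at 0 in WT M3. Csf1r had a mean of 595 normalized counts and Cd68 of 231, against 1138 for the list, so that the range of the sum is largely that of these genes. Neutrophil markers gave 4 tested of 9 and a sum of 23736 in WT F1, 35649 at the median and 48579 in WT F2, of which Retnlg made up nearly all (a mean of 35077 normalized counts against 35416 for the list), so that the range of the sum is that of Retnlg. The other tested members differed from it, with S100a8 highest in WT F1 and S100a9 and Ngp in WT F3. Elane had no count in any of the 6 samples, and Ly6g, Mpo and Camp had counts in WT F3 only among them, as did 13.3% of all genes in the table. S100a8 was detected in every sample, at 210 normalized counts per kilobase (percentile 81.4 of the tested genes). S100a9, its partner protein, held 362 normalized counts per kilobase (percentile 89.9) and had a deposited log2 level between 7.44 in WT M1 and 8.54 in WT F3, with a median of 7.88. Mast cell markers gave 1 tested of 8, Kit, and a sum of 58.8 in WT M2, 83.9 at the median and 179 in WT F2, with Mcpt4 and Fcer1a at 0 in all 6 samples. Red cell markers gave 1 tested of 3, Alas2, and a sum of 25.1 in WT M3, 35.4 at the median and 64.0 in WT F2, with Hba-a1 at 0 in 3 of the 6 samples.

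**Figure D4:**
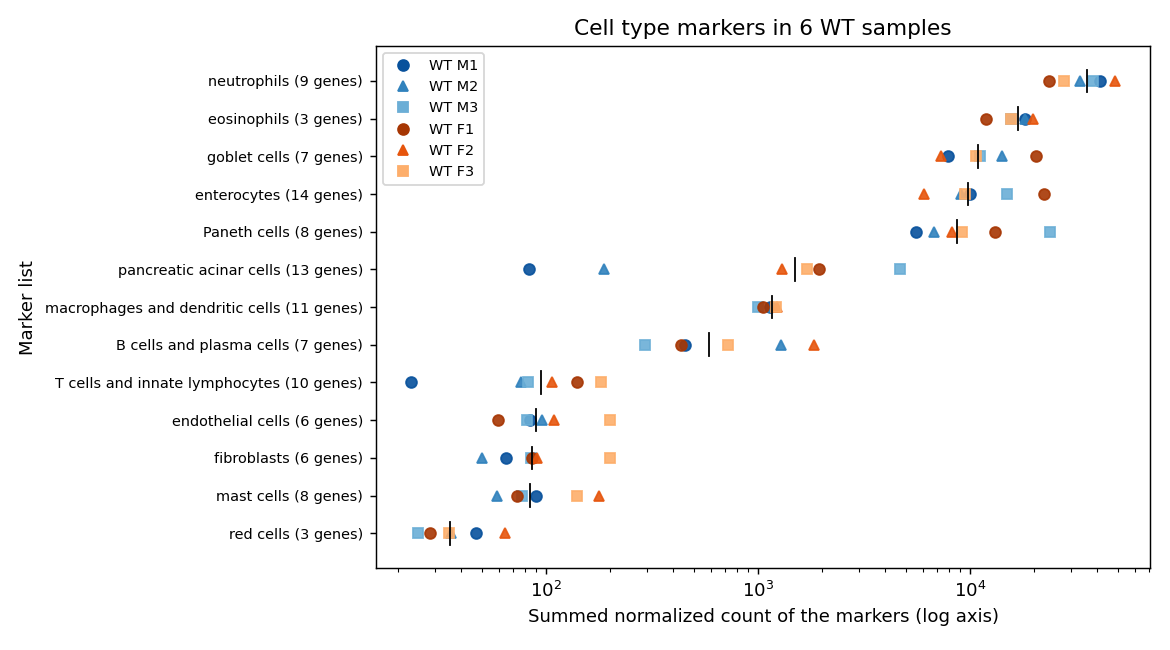
Summed normalized count (horizontal log axis) of 13 cell type marker lists (vertical axis, number of genes in brackets) in 6 WT samples, where points are samples and black bars are medians. Acinar markers range from 83.2 in WT M1 to 4701 in WT M3, and macrophage and dendritic cell markers from 1008 to 1228. Levels of different lists are not corrected for length.

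Differences between samples ran along a few directions. In the principal components of the 500 most variable genes, the leading component held 46.4% of the variance, with WT F1 at 14.87 and WT M3 at 13.69 on the log2 score, WT M1 at -10.38 and WT F2 at -12.74, and WT M2 and WT F3 between them. Hspa1a, Hspa1b, Ctrb1, Reg3b and Cpb1 had the largest positive loadings on it, and Hdc, Acod1, Muc6 and Ell2 were among the genes with the largest negative loadings. WT F1 and WT M3 were thus the samples high for heat shock and digestive genes and low for Hdc and Acod1 relative to WT M1 and WT F2. The next component, with 30.1%, set males (7.33 to 10.12) apart from females (-10.02 to -7.89), led by Xist and the Y-linked genes. A further 11.2% lay on the component after that, where Muc6, Ctrb1 and Defa38 loaded positively and Slc25a46, Vmn2r114 and Mid1 negatively.

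**Figure D5:**
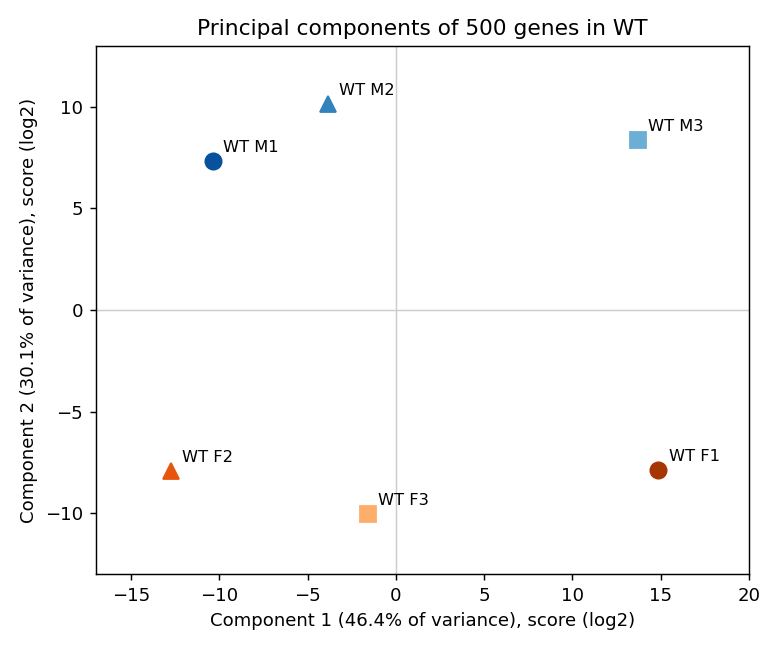
Scores (log2) of 6 WT samples on component 1 (horizontal, 46.4% of variance) and component 2 (vertical, 30.1%) of the 500 most variable genes, with circles, triangles and squares for replicates numbered alike within each sex. WT F1 and WT M3 lie at the right and the 3 females lie below 0 on component 2.

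Between male and female samples, differences that passed the test were limited to sex-linked genes. With limma and Benjamini-Hochberg adjustment, 5 of 11409 tested genes (0.0438%) had an adjusted p below 0.1, 1 higher in females (0.00877%) and 4 higher in males (0.0351%). At an unadjusted p below 0.05 there were 405 genes (3.55%), and for 1028 (9.01%) the 3 males and 3 females did not overlap. Kdm5d, a histone demethylase on the Y chromosome, had deposited log2 levels of 9.86, 9.81 and 9.51 in males and 5.84, 5.66 and 5.53 in females, which is -4.05 as female minus male (standard error 0.19, limma adjusted p = 2.48e-06). Eif2s3y, a translation initiation factor on the Y chromosome, gave -4.93 as female minus male log2 difference (standard error 0.24, limma adjusted p = 2.91e-06). For Uty the same log2 difference was -3.79 (standard error 0.21, limma adjusted p = 6.28e-06). Xist, the RNA that silences an X chromosome, had counts of 19, 24 and 21 in the males. The Y-linked Kdm5d likewise had counts of 9, 4 and 2 in the females. Whether such low counts reflect expression was not tested. The X-linked partners of the Y genes did not pass. Kdm5c had levels of 8.99, 8.91 and 8.79 in males and 9.48, 9.64 and 9.73 in females, a log2 difference of 0.72 (limma adjusted p = 0.998). Kdm6a had a difference of 0.60, Eif2s3x of 0.57 and Ddx3x of -0.09 as log2 differences, none of which passed. With 3 against 3 samples an exact permutation test of a single gene cannot go below p = 0.1. Without WT M3 the count was 13 in place of 5, with 8 digestive enzyme genes added (Cpa1, Cela1, Cel, Cela2a, Ctrb1, 2210010C04Rik, Pnlip and Cpb1). Without WT F2 it was 8, with Muc6, Tff2 and Olfr374 added.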

How the data were processed

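The submitters aligned reads to build GRCm38 with STAR 2.5.2, counted genes with RSEM 1.3.0 and applied the variance-stabilizing transformation of DESeq2 in R 4.0.3. The log2 values are used as the authors deposited them. Counts were obtained by inverting that transformation, and every recovered count was whole (100%, largest deviation 3.3e-08). Members and lists were chosen with earlier results of these data known.

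Python 3.11.15, numpy 2.4.6, pandas 2.3.3, matplotlib 3.10.9, R 4.3.3 and limma 3.58.1 were used. The comparison of sexes was also run on simulated data, and no result of that run is used here. A gene was tested when its mean was at least 1 above the lowest value of the table. Sexes were compared with limma (mean-variance trend, Benjamini-Hochberg, adjusted p below 0.1). Named genes are the 30 with the highest mean, the 30 with the largest SD, the 10 with the smallest SD among the upper part of the means, the 10 highest per kilobase, and members of 25 role lists and 13 marker lists. Exon lengths are from GENCODE vM21 basic and cover 11074 of 11409 tested genes (97.1%). Promoters are from RefSeq, 250 bases before to 50 after the most upstream start given for a gene. Motifs and genes shown were kept because they matched, out of 14 motifs searched in 45 genes. Alternatives tried were other minimum means, scales, rankings, detection limits, scaling, a replicate block and leaving out samples.

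Limits: 6 samples of sorted bulk RNA give no view of single cells. Transcript levels are not protein levels. Amplified cDNA and differences in exon coverage make levels per kilobase approximate. Genes with near-identical copies cannot be split with certainty. Levels of genes known as markers of other cells differed between samples, and whether the sorted cells or other cells held these transcripts was not tested. Hour of collection, age and batch are not given in the labels, so differences between samples cannot be assigned to any of them.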

Additional observations from a re-analysis of the deposited data

Results flagged for a closer look

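A sample is listed here when the gap between it and its nearest neighbour, divided by the range, passed Dixon's limit for 6 samples, which chance passes in about 1 of 20 groups. Of 283 quantities examined, 17 passed it (6.01%). These quantities included genes named for their large SD, so this share cannot be compared with the chance rate.

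WT F3 had 20244 genes detected, against 16526 in the next sample. WT F1 had 298 tested genes more than 1 above the median of the other samples on the log2 scale, against 113 in the next. WT F3 was also highest in the summed normalized count of fibroblast markers, 202 against 91.2, and of endothelial markers, 200 against 110. Both lists have low counts, with 3 of 6 members tested in each. They are to be read beside the 13.3% of all genes that had counts in WT F3 only among the WT samples.

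Genes with few counts stood apart in WT F3, the only WT sample with counts for 13.3% of all genes in the table. In WT F3 the deposited log2 level was 5.90 for Camp, 5.38 for Ear6, 5.38 for Ifng, 6.20 for Il12b, 5.82 for Il5, 5.74 for Ly6g and 6.54 for Mpo, against 5.02 in the next sample for each. Tlr5 was 6.03 in WT F3 against 5.64. Vmn2r114 was 8.44 in WT F3 against 5.91. Vmn2r114 had been named for its large SD, and only its level in WT F3 brought its mean, 6.16, above the minimum mean. Its flag was favoured by this choice and cannot be read against the chance rate. Ccl24 was 5.30 in WT M3 against 5.02. At the low end, Clec4a3 was 5.02 in WT M3 against 5.77, Il4 was 8.35 in WT F1 against 8.61, and the gene with Entrez ID 100861531, listed without a symbol, was 17.86 in WT M1 against 18.81. What set these samples apart was not tested.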

How the results depend on the processing

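The count of genes that differed between sexes (5) was the same without a minimum mean, with log2 of count plus 1, with voom, with quantile normalization and with the replicate block (5). It was 1 with the stricter minimum and 5 to 13 with a sample left out (13 without WT M3, 8 without WT F2). Deviations from the mean of each sex correlated at -0.46, 0.21 and -0.12 between samples with the same number, and at 0.57 between WT M3 and WT F1. With 3 samples per sex these correlations constrain each other. They therefore cannot show whether samples with the same number were paired. Genes detected in all samples (13233) were 11983 at 3 counts, 10324 at 10 counts, 12726 with samples thinned to the total of WT F3 and 13350 to 13503 with a sample left out. The share of the top 100 (28.7%) was 28.8% and 29.3% under the alternatives and 28.3% to 29.2% with a sample left out. Of the 100 most abundant genes, 96 were kept by count, 96 by median, 54 per kilobase and 95 to 98 with a sample left out. Genes with an SD above 0.5 (756) were 1621 without a minimum mean, 358 with the stricter one, 3446 with log2 of count plus 1, 719 with centring, 903 within sexes and 526 to 973 with a sample left out. An alternative added after seeing the data, without WT M3 and WT F1, gave 431. Of the 100 most variable genes, 29 were kept by coefficient of variation, 60 with the stricter minimum, 79 within sexes and 65 (without WT M3) to 91 with a sample left out. The leading component (46.4%) held 44.6% with all tested genes, 34.6% with log2 of count plus 1, and 49.5% (without WT M1), 51.6% (M2), 52.5% (M3), 49.6% (F1), 51.5% (F2) and 56.8% (F3) with a sample left out. No gene that passed reversed in direction. Ddx3x, which did not pass, went from -0.09 to 0.11 without WT M1 and 0.04 without WT F1. The cause of these shifts was not tested.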

Other observations

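Olfr374, an olfactory receptor gene, had a deposited log2 level between 5.31 in WT M2 and 7.66 in WT F3, with a median of 5.68. Slc25a46, which acts in the mitochondrial outer membrane, lay between 7.65 in WT F2 and 9.46 in WT M1, with a median of 8.67 as a deposited log2 level. WT F3 and WT F1 were the high samples for Olfr374, and WT M1, WT M2 and WT F3 were high for Slc25a46.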
